A study of Mus musculus with 9 samples.

Results

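The cells described here are astroglia of the mouse olfactory bulb (OB) that held RNA of Islr or Hs3st3a1. The cells were chosen by their own measured UMIs of these genes. A cell was taken when its barcode had at least 1500 unique molecular identifiers (UMIs, each counted as 1 captured RNA molecule), at most 10% of them from mitochondrial genes, at least 1 UMI of Islr or Hs3st3a1, at least 1 UMI of Slc1a3, and none of Pdgfra or Dcx. This gave 605 cells, with 159 at 3 months, 283 at 14 months and 163 at 24 months, of 1345 OB cells within the UMI and mitochondrial limits and 7402 barcodes in the series. They are called Islr/Hs3st3a1 astroglia, and the levels of the genes in the rule are descriptions, with no test. The reference astrocytes were the 247 OB cells within the same limits that held Slc6a11 and Slc1a3 but no UMI of Islr, Hs3st3a1, Pdgfra or Dcx, with 67, 118 and 62 cells at the same ages.

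The study compared GFP+ cells of the subventricular zone (SVZ), OB and dentate gyrus (DG) of heterozygote Dcx-GFP mice, in which the promoter of the neuroblast gene Dcx drives the green fluorescent protein, at 3 (adult), 14 (middle-aged) and 24 (aged) months. All groups carried this reporter and were sorted by flow cytometry on it, so the cells are those that the GFP gate let through and not a sample of all OB astrocytes. For each region and age, tissue of 4 to 5 mice was pooled into 1 single-cell library, which gave 9 libraries and no replicate of any age. The classes compared within the OB came from the same 3 libraries, and p-values measure the spread between these libraries only.

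Astrocytes take up glutamate and GABA, buffer potassium and secrete matrix proteins, and they differ in gene expression between brain regions. Slc1a3 encodes the glutamate transporter GLAST, and Slc6a11 encodes the GABA transporter GAT-3. Islr encodes a secreted protein with leucine-rich repeats and an immunoglobulin domain, and Hs3st3a1 encodes a sulfotransferase that modifies heparan sulfate chains. Sparc encodes a secreted matrix-binding glycoprotein, and Naaa a lysosomal enzyme that hydrolyses N-acylethanolamines such as palmitoylethanolamide. In the GRCm38 build, Islr lies on chromosome 9 (58156268 to 58204306, minus strand), Hs3st3a1 on chromosome 11 (64435332 to 64522841, plus strand), Sparc on chromosome 11 (55394500 to 55423183, minus strand) and Naaa on chromosome 5 (92257659 to 92278170, minus strand), and all are annotated as protein-coding genes.

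The library totals ranged from 1412634 to 5247802 UMIs. The median Islr/Hs3st3a1 cell held 3936, 3809 and 3805 UMIs at 3, 14 and 24 months, and the median reference cell 3143, 3520 and 3536.5 UMIs. Scrublet called 19 doublets among the 2017 OB barcodes, of which 8 were Islr/Hs3st3a1 cells and 4 were reference cells. Summed over all pairs of libraries, 33 barcodes were shared, and 1 of them was an Islr/Hs3st3a1 cell in both the middle-aged and the aged OB. All intervals cover counting error only.

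The rule rested on few molecules. Of the 605 cells, 223 held a single UMI of Islr and Hs3st3a1 together, which was 35.8%, 38.5% and 35.0% of the cells at 3, 14 and 24 months. The highest sum of both genes in a cell was 12, 11 and 8 UMIs at these ages. Islr alone was seen in 245 cells, Hs3st3a1 alone in 146 and both in 214. Near the limits, 7, 2 and 5 further OB cells failed only the UMI minimum, 1, 17 and 12 only the mitochondrial limit, and 3, 5 and 5 only by a UMI of Pdgfra or Dcx, while 2, 1 and 1 of the chosen cells had fewer than 1600 UMIs.

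OB cells of types that should lack these genes held few UMIs of either. Among 161 OB cells with Dcx and no Slc1a3, with a median of 3679 UMIs, 4 held Islr (2.48%, 95% exact interval 0.681 to 6.24) and 0 held Hs3st3a1, which allows a share of up to 1.86%. Among 37 cells with Mbp and Mog and no Slc1a3, with a median of 9186 UMIs, 0 held either gene. In the chosen cells, with a median of 3839 UMIs, Islr was seen in 75.9% and Hs3st3a1 in 59.5%, as the rule required 1 of them. On UMIs summed per class and library and given as counts-per-million (CPM), Islr stood at 454, 376 and 370.5 and Hs3st3a1 at 201, 216 and 208 at 3, 14 and 24 months.

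The labelled class was checked against astrocyte markers that the rule had not used. Aldoc, a glycolytic enzyme of astrocytes, was seen in 99.0% of Islr/Hs3st3a1 cells, the gap junction gene Gja1 in 97.7%, the glutamate transporter gene Slc1a2 in 96.7%, the water channel gene Aqp4 in 83.5% and Gfap, an intermediate filament gene, in 40.7%. Among the 161 Dcx cells without Slc1a3, Aldoc was seen in 13.7%, Aqp4 in 1.86% and Gfap in 1.24%. The GABA transporter gene Slc6a11 was not asked of these cells and was seen in 565 of them, or 93.4%.

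Markers of other cell types that the OB could hold were low, apart from the neural stem cell list. Of the fibroblast list, Dcn, Lum, Col3a1, Slc6a13 and Igf2 were at 0 in all 605 cells, and the 7 genes summed to between 17.7 and 31.0 CPM over the 3 libraries. Of the olfactory ensheathing glia list, Prss56, Sox10, Foxd3 and Mybpc1 were at 0, and the 8 genes summed to 147, 61.7 and 49.6 CPM. Of the 7 microglia genes, Cx3cr1, Aif1, C1qa, C1qb and Tmem119 were at 0, as were Flt1, Ly6c1, Vtn and Acta2 of the 7 endothelial and mural genes, with list sums of at most 25.9 and 14.0 CPM. The 6 oligodendrocyte genes summed to 91.8, 30.4 and 23.3 CPM, the 5 oligodendrocyte progenitor genes to 219, 235 and 186, and the 5 ependymal genes to between 62.8 and 77.5. The 10 neural stem cell genes, which include Gfap and Vim, summed to 1424, 1357 and 1690 CPM. The reference stood at 1371, 1493 and 1354 CPM. Of this list, Nes and Thbs4 were seen in 0.496% and 1.16% of the cells. The 8 cell cycle genes summed to 147, 308 and 136 CPM, and the proliferation gene Mki67 was seen in 0.165%.

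Islr/Hs3st3a1 astroglia were 35.9% (31.4 to 40.6) of the OB cells within limits at 3 months, 47.8% (43.7 to 51.9) at 14 months and 52.6% (46.9 to 58.3) at 24 months. The same rule found 9 of 2297 cells in the SVZ and 184 of 2027 in the DG, where 95 cells (13.5%), 57 (5.51%) and 32 (11.0%) met it at 3, 14 and 24 months. Over cells with Slc1a3 and neither Pdgfra nor Dcx, the rule took 58.2%, 65.7% and 69.1% of OB cells at the 3 ages, against 20.2%, 17.4% and 42.7% of DG cells, the last being 32 of 75 cells (31.3 to 54.6). In the DG, 143 of these 184 cells held Islr alone, and 16 held both genes, against 214 of 605 in the OB. The CPM values in DG astrocytes with Gjb6 were 38.4, 61.5 and 133 for Islr and 9.38, 13.1 and 55.8 for Hs3st3a1, and since these cells were not chosen on either gene, their levels are not compared with those of the OB cells.

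The adult share of the OB was below both later shares, and their intervals did not overlap. When each cell was thinned to 1500 UMIs, the shares were 22.8% (19.0 to 27.0), 29.6% (25.9 to 33.4) and 32.6% (27.4 to 38.1). The adult and aged intervals then stood apart by a narrow margin, and the adult and middle-aged intervals overlapped. Among OB cells with Slc1a3 and neither Pdgfra nor Dcx, the thinned shares were 39.6% (33.6 to 45.9), 40.7% (36.0 to 45.5) and 43.0% (36.6 to 49.6), with wide overlap, and those of the DG were 9.40%, 7.07% and 20.7%. With 1 library per age, no test between ages was possible, and age, pool and sort cannot be told apart.

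**Figure D1:**
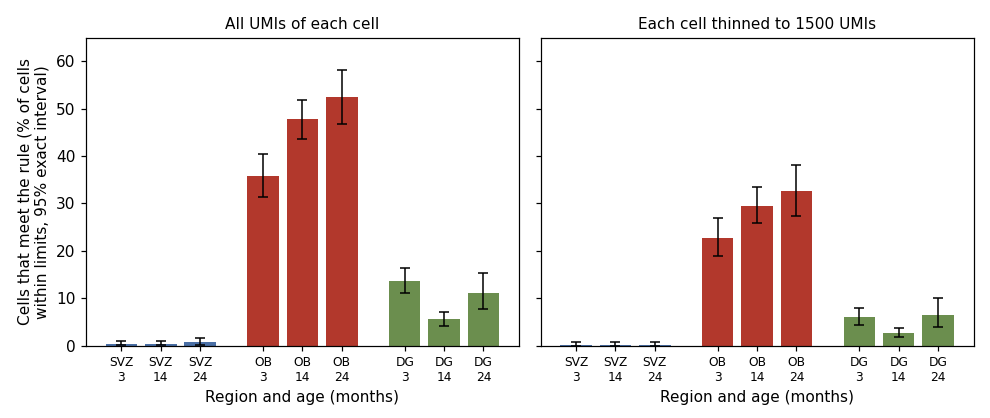
Share of cells within limits that met the rule for Islr/Hs3st3a1 astroglia in each of the 9 libraries, by region and age in months, with all UMIs of each cell (left) and with each cell thinned to 1500 UMIs (right). Bars give the share and lines its 95% exact interval. The OB bars rose from 35.9% to 52.6% on the left and from 22.8% to 32.6% on the right, and every SVZ and DG bar was below the OB bars.

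The first comparison asked which other genes separated Islr/Hs3st3a1 astroglia from OB astrocytes with neither gene. It was tested on UMIs summed per class and library, with the library as a block. Of 6451 genes tested, 50 were higher in Islr/Hs3st3a1 astroglia (0.775% of those tested) and 48 were lower (0.744%) at an edgeR adjusted p under 0.05. Several astrocyte markers did not pass the test. Aldoc was at 5168, 4697 and 4833 CPM in Islr/Hs3st3a1 astroglia and at 5420.5, 5108 and 4707 in the reference. Aqp4 differed by a log2 fold change of 0.12 ± 0.10 (SE, edgeR adjusted p = 0.855), Gja1 by 0.01 ± 0.09 (edgeR adjusted p = 0.99) and Slc1a2 by -0.17 ± 0.09 (edgeR adjusted p = 0.566). DESeq2 called 8 genes higher and 3 lower on the same sums, and edgeR called all of these. Without the middle-aged library edgeR called 26 higher and 33 lower, among them 20 of the 50 and 20 of the 48. With no block for the library it called 2 and 1, so most calls rest on the pairing of the classes within a library.

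Sparc, the matrix glycoprotein gene named as a marker of these cells, was higher in all 3 libraries. It stood at 462, 577 and 1087 CPM in Islr/Hs3st3a1 astroglia at 3, 14 and 24 months and at 294, 239 and 619 in the reference. The classes overlapped across ages, since the aged reference was above the younger Islr/Hs3st3a1 cells, but within each library the order was the same. The log2 fold change was 0.95 ± 0.12 (SE, 3 libraries per class, edgeR adjusted p = 1.26e-07), and with no block the adjusted p was 0.449. Sparc was seen in 72.1% of Islr/Hs3st3a1 cells, in 50.6% of reference cells, in 2.48% of the Dcx cells and in 37.8% of the 37 Mbp and Mog cells. Naaa, the other marker, did not pass the test, with 372, 327 and 414 CPM against 280.4, 256 and 314, a log2 fold change of 0.41 ± 0.13 and an edgeR adjusted p of 0.126, although its 3 values were all above those of the reference, as for 340 of the 6451 genes (5.27%), while 415 (6.43%) had all 3 values below. Under some other settings Naaa passed. Its edgeR adjusted p was 0.047 with all genes of any UMI and 0.028 in cells with 2 or more UMIs of both genes. It was 0.0359 at a mitochondrial limit of 5%. Without the Pdgfra and Dcx limits of the reference it was 0.0127, and without its Slc6a11 limit 0.0167. With each cell thinned to 1500 UMIs it was 0.101, and the DESeq2 adjusted p was 0.655. Sparc and Naaa were picked with these data in view, so their values are no independent evidence.

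Sparc was among the 12 genes with the largest rise. Of the others, Gria1, which encodes the AMPA receptor subunit GluA1, was at 72.5, 66.2 and 133 CPM against 13.4, 13.1 and 66.1, and the classes did not overlap, though the middle-aged value lay at that of the aged reference. Its log2 fold change was 1.68 ± 0.28 (SE, edgeR adjusted p = 6.00e-05). The ephrin genes Efnb1 and Efna5, ligands of Eph receptors, rose by log2 fold changes of 1.20 ± 0.33 and 1.11 ± 0.28 (edgeR adjusted p = 0.0425 and 0.0168). Efnb1 stood at 48.3, 51.9 and 46.5 CPM against 22.3, 17.5 and 28.9, with no overlap, and Efna5 at 70.9, 90.3 and 57.4 against 17.8, 61.3 and 12.4, with overlap. Prss23, a serine protease gene, was at 176, 173 and 124 against 40.1, 63.5 and 74.3, with no overlap, and Riiad1 had the largest log2 fold change, 1.70 ± 0.32, from 67.7, 51.9 and 100.8 against 4.45, 28.5 and 24.8.

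The remaining genes of this group were Tmem132b, Rnd3, Atxn1, Vim, H2-D1 and Kcne1l. Vim, an intermediate filament gene, was at 127, 70.7 and 155 CPM against 44.5, 52.5 and 70.2, with no overlap, though the middle-aged value was close to that of the aged reference. H2-D1, a class I histocompatibility gene, was at 164, 193 and 271 against 111, 74.4 and 161. Rnd3, which encodes an atypical small GTPase, rose by 1.07 ± 0.22 on the log2 scale, the ataxin gene Atxn1 by 1.00 ± 0.21, the potassium channel subunit gene Kcne1l by 0.91 ± 0.21 and Tmem132b by 1.51 ± 0.40, and of these Tmem132b was the 1 whose classes overlapped, with 27.4, 40.3 and 62.0 against 8.90, 2.19 and 45.4. With each cell thinned to 1500 UMIs, 5 of the 11 of these 12 genes that could be tested passed (Gria1, Prss23, Rnd3, H2-D1 and Sparc), and 7 of 12 passed without the middle-aged library.

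The 12 genes with the largest fall were Snap25, a synaptic fusion gene, the microtubule genes Map1b, Stmn1, Stmn3, Tubb3 and Tubb5, the transcription factor gene Sox11, and Ndrg4, Pde10a, Pak1, Ptprd and Clip3. Stmn1, a microtubule destabiliser, was at 99.9, 232 and 100.8 CPM in Islr/Hs3st3a1 astroglia and at 329, 458 and 491 in the reference, with no overlap and a log2 fold change of -1.53 ± 0.16 (edgeR adjusted p = 2.55e-10). Snap25 was at 14.5, 16.1 and 9.30 against 22.3, 186 and 20.6, a log2 fold change of -2.66 ± 0.33 (edgeR adjusted p = 6.35e-08). With each cell thinned to 1500 UMIs, 0 of the 5 of these 12 genes that could be tested passed, and Stmn1 had a log2 fold change of -0.73 (edgeR adjusted p = 0.107).

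For Snap25 and for Mbp, most reference UMIs of 1 library lay in a few cells. Of the 85 Snap25 UMIs of the middle-aged reference, 96.5% lay in 3 of 118 cells. In the aged reference, 1 of 62 cells held 142 of 148 UMIs of Mbp, a myelin gene. Mbp was called lower, with a log2 fold change of -2.67 ± 0.34 (edgeR adjusted p = 1.26e-07), but it was lower in 2 of 3 libraries, and without the aged library its value was -0.41 (edgeR adjusted p = 0.890). The 13 neuroblast and neuron genes summed to 298, 558 and 140 CPM in the reference against 121, 249 and 127 in Islr/Hs3st3a1 astroglia, and the 8 cell cycle genes to 610, 484 and 388 against 147, 308 and 136. The 6 oligodendrocyte genes summed to 57.9, 41.6 and 1520 CPM in the reference. Cells of both classes with a UMI of Mbp, Mog, Cx3cr1, Aif1, Cldn5, Sox10, Tubb3 or Syt1 were then left out. This kept 126, 245 and 138 Islr/Hs3st3a1 cells and 52, 99 and 53 reference cells at 3, 14 and 24 months. In these cells 37 genes were higher and 20 lower, and 31 of the 50 and 13 of the 48 genes above were called again. The part of the lost counts in these changes was not tested. Of the 12 genes with the largest fall, 7 could then be tested, all 7 were lower and 3 passed. The log2 fold change of Stmn1 was then -0.95 (edgeR adjusted p = 1.40e-04) and that of Sparc 0.94 (edgeR adjusted p = 3.36e-10). Mbp and Tubb3 were at 0 in the cells kept, by the choice of these cells, and could not be tested. Snap25 no longer had the counts to be tested.

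**Figure D2:**
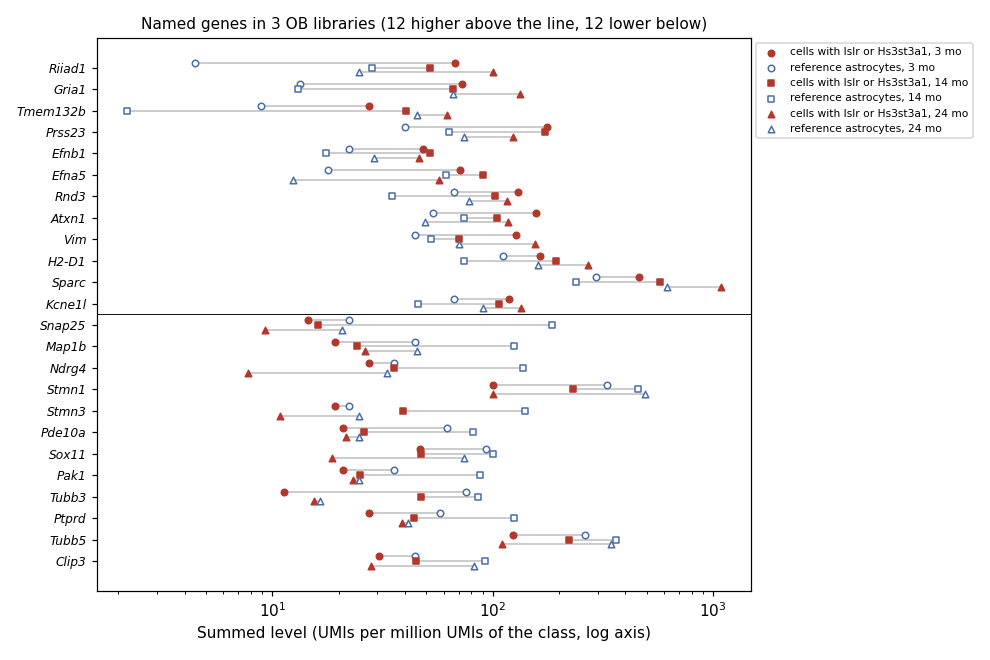
The 24 named genes of the comparison within the OB, 12 higher above the line and 12 lower below, as CPM of each class on a log axis, at 3 (circle), 14 (square) and 24 months (triangle). Filled symbols are Islr/Hs3st3a1 astroglia, open symbols are reference astrocytes, and grey lines join the classes of 1 library. Genes were chosen to have the same sign in every library. By that choice, the filled symbol lies to the right for the upper genes and to the left for the lower genes.

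Gene lists of astrocyte function showed scattered calls, read beside the 0.775% and 0.744% of all genes. Of 19 matrix genes tested, Sparc, Igfbp2 and Itih3 were higher, and the list's median log2 fold change was 0.08, against -0.01 for all genes. Igfbp2, which binds insulin-like growth factors, was at 1484, 929 and 849 CPM against 614, 571 and 665 and rose by 0.79 ± 0.11 on the log2 scale (edgeR adjusted p = 1.34e-06). Of 7 neural stem cell genes Vim and Gfap were higher, with a list median of 0.07. Of 9 genes of the reactive astrocyte list, Vim, Gfap and H2-D1 were higher, with a list median of 0.50. Gfap stood at 251, 150.3 and 360 against 178, 120.4 and 190 and had a log2 fold change of 0.60 ± 0.16 (edgeR adjusted p = 0.0264). That call was lost with each cell thinned to 1500 UMIs (0.18, edgeR adjusted p = 0.849) and without the aged library (0.43, edgeR adjusted p = 0.375). Of 10 interferon genes, B2m and H2-D1, which encode the light and a heavy chain of class I histocompatibility molecules, were higher, with a list median of 0.57.

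Uptake and ion transport genes added single members. Of 17 transmitter genes, only Slc6a9, the glycine transporter GlyT1, passed the test, at 227, 233 and 290 CPM against 147, 94.1 and 194 (log2 fold change 0.88 ± 0.16, edgeR adjusted p = 2.91e-04). Of 18 channel, junction and ion transport genes, the potassium channel gene Kcnj10 and the bicarbonate transporter gene Slc4a4 were higher and Car2, a carbonic anhydrase, was lower. With each cell thinned to 1500 UMIs the log2 fold changes were 0.21 for Kcnj10 (0.66 unthinned, edgeR adjusted p = 0.825 thinned) and 0.61 for Slc6a9 (edgeR adjusted p = 0.217), and without the middle-aged library 0.50 and 0.61 (edgeR adjusted p = 0.527 and 0.192). Against the reference, Kcnj10 stood at -0.16 in the cells with Hs3st3a1 alone (edgeR adjusted p = 0.997). Of 15 astrocyte markers, Slc4a4 and the neurotensin receptor gene Ntsr2 were higher and 0 were lower. Sfrp1, a secreted Wnt binding protein, was the 1 gene called of 8 of the Wnt list and was higher. Efna5 was the 1 gene called of 7 axon guidance genes.

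Hes5, a target of Notch, was at 625, 507 and 467 CPM in Islr/Hs3st3a1 astroglia against 779, 709 and 710.2, with no overlap, and fell by 0.45 on the log2 scale (SE 0.11, edgeR adjusted p = 0.0126). It was the 1 gene called of 8 in the Notch list, as was Id3, a target of BMP signalling, of 9 in the BMP and TGF-beta list (log2 fold change -0.67 ± 0.16). Lhx2, a forebrain transcription factor gene, was the 1 called of 19 regional factors, at 126, 133 and 132 against 160.2, 230 and 206.

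In several lists edgeR called 0 genes. This held for 11 heparan sulfate genes, of which 2 had an unadjusted p under 0.05 (Sdc3 and Gpc6), 8 N-acylethanolamine and endocannabinoid genes, of which 2 did (Naaa and Gde1), 23 lipid and sterol genes (5), 12 Shh and FGF genes (1), 6 early response genes (1) and 13 metallothionein and antioxidant genes (1). DESeq2 called 0 genes in each of these lists. The 3-O-sulfotransferase genes Hs3st3b1 and Hs3st1 were seen in 7.60% and 1.98% of the cells, against 5.26% and 2.02% of the reference. Of the identity lists, 0 of 1 microglia, 2 oligodendrocyte progenitor and 1 ependymal gene tested were called by edgeR or DESeq2 and 0 had an unadjusted p under 0.05, while Mbp, Snap25, Tubb3, Pcna and Ccnd2 were lower and no fibroblast, endothelial or mural gene had the counts to be tested.

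The second comparison asked how the chosen cells varied among themselves. The 245 cells with Islr alone were set against the 146 with Hs3st3a1 alone, with 67, 105 and 73 cells against 35, 78 and 33 at 3, 14 and 24 months, and median depths between 3707 and 3849 UMIs against 3928 and 4047. Of 3938 genes tested, 13 were higher in the Islr cells (0.33% of those tested) and 4 were higher in the Hs3st3a1 cells (0.102%). In this comparison 206 genes (5.23%) had all 3 values of the Islr cells above and 284 (7.21%) below. The calls depended on which libraries were used. They were 0 and 0 without the middle-aged library, with 162 genes at an unadjusted p under 0.05. Without the adult library they were 2 and 1, and without the aged library 20 and 17. DESeq2 called 1 gene in each direction, and edgeR with no block for the library 3 and 1.

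Among the genes higher in the Islr cells, Kcnj10, which encodes the potassium channel Kir4.1, was at 274, 263 and 282 CPM in the Islr cells and at 109, 132 and 166 in the Hs3st3a1 cells, with no overlap and a log2 fold change of 1.06 ± 0.22 (SE, edgeR adjusted p = 0.0126). Slc6a9 was at 228, 323 and 325 against 146, 129 and 166 (1.09 ± 0.22, edgeR adjusted p = 0.00857), and the citron kinase gene Cit at 475, 375 and 349.6 against 255, 194 and 188 (0.97 ± 0.19, edgeR adjusted p = 0.00822). The adhesion receptor gene Adgrb1, the non-coding RNA gene Meg3 and the phospholyase gene Etnppl rose by 1.16 ± 0.23, 1.38 ± 0.27 and 0.94 ± 0.21 on the log2 scale.

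Higher in the Hs3st3a1 cells were Slco1c1, a thyroid hormone transporter gene, Grm3, which encodes the metabotropic glutamate receptor mGluR3, the non-coding RNA gene Pantr1, and Mfge8, which encodes a secreted protein that binds phosphatidylserine. Grm3 was at 42.5, 77.5 and 46.4 CPM in the Islr cells against 204, 172 and 75.4 (log2 fold change -1.32 ± 0.28, edgeR adjusted p = 0.0157), and the classes overlapped because of the aged Hs3st3a1 cells. Pantr1 was at 243, 388 and 225 against 751, 765 and 429.7 (-1.12 ± 0.18, edgeR adjusted p = 9.05e-04), with no overlap. Slco1c1 and Mfge8 had log2 fold changes of -1.45 ± 0.23 and -0.53 ± 0.12.

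Set against the same reference, the Islr cells alone gave 56 genes higher and 41 lower, while the fewer Hs3st3a1 cells alone gave 1 higher and 3 lower. Sparc had a log2 fold change of 0.96 over the reference in the Islr cells (edgeR adjusted p = 2.95e-07) and of 0.31 in the Hs3st3a1 cells (edgeR adjusted p = 0.939), and Slc6a9 values of 1.14 and 0.09. Sparc stood at 131, 356 and 1040.3 CPM in the Hs3st3a1 cells, at 487, 628 and 949 in the Islr cells and at 637, 708 and 1279 in the cells with both genes. The direct test of Sparc between Islr and Hs3st3a1 cells did not pass the threshold. Naaa was at 293, 293 and 293 in the Islr cells, 357, 298 and 596 in the Hs3st3a1 cells and 472, 387 and 457 in the cells with both.

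Of the lists in this comparison, Igfbp2 was higher in the Islr cells and Mfge8 lower among 18 matrix genes, Slc6a9 was higher and Grm3 lower among 15 transmitter genes, and Kcnj10 was higher among 18 channel genes. In every other list edgeR and DESeq2 called 0 genes, and the number with an unadjusted p under 0.05 was at most 7, in the lipid and sterol list of 21.

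**Figure D3:**
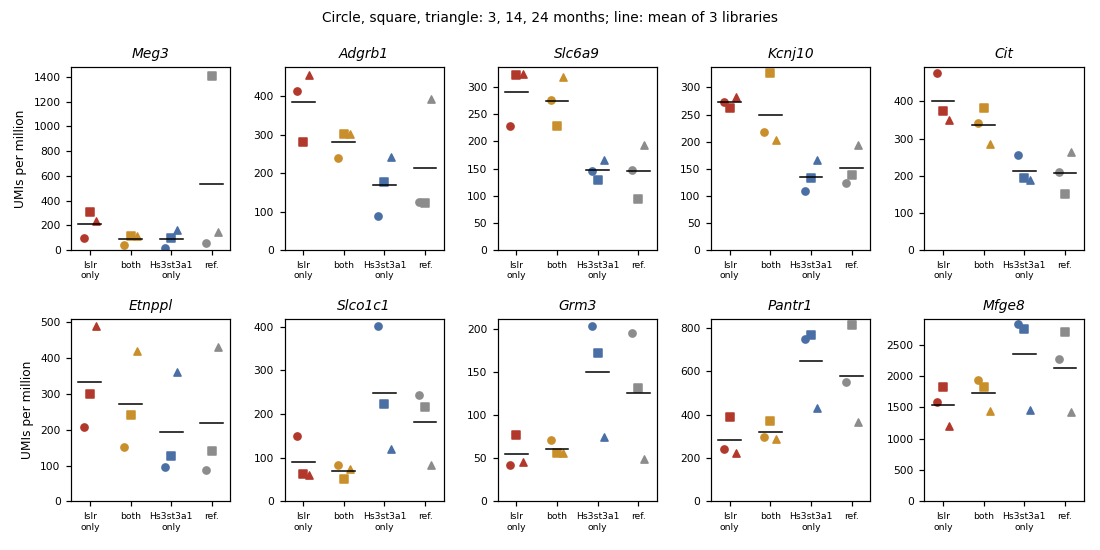
CPM of the 10 named genes in cells with Islr only, both genes, Hs3st3a1 only, and in reference astrocytes with neither, at 3 (circle), 14 (square) and 24 months (triangle), with a line at the mean of the 3 libraries. Kcnj10 lies between 263 and 282 in Islr cells and between 109 and 166 in Hs3st3a1 cells, and Pantr1 has the opposite order.

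The last comparison of classes set Islr/Hs3st3a1 astroglia against astrocytes of another region, the 249, 232 and 55 DG cells with Gjb6 and Slc1a3 and neither Pdgfra nor Dcx. Regions of 1 age came from the same mice, so age was the block, and region and library cannot be told apart. Of 7760 genes tested, 449 were higher in Islr/Hs3st3a1 astroglia (5.79%) and 404 were lower (5.21%), and 1063 (13.7%) and 771 (9.94%) did not overlap in either direction. Without the middle-aged libraries the counts were 268 and 223, and DESeq2 called 171 and 131. The OB reference astrocytes are given beside the leading genes, since they share the region.

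Several genes were nearly absent from one side. Cit was at 379, 325 and 293 CPM in Islr/Hs3st3a1 astroglia and had 2 UMIs in all DG astrocytes, a pooled ratio of 378 (104 to 3128, counting interval), and it stood at 195 in the pooled OB reference. Nrxn3, a presynaptic adhesion gene, and Slc16a6, a monocarboxylate transporter gene, had 126 and 101 UMIs against 1 each (ratios 121, 21.3 to 4820, and 97.1, 17.0 to 3871). Sez6 had 287 UMIs against 3 (91.9, 31.2 to 448) and Shisa9, an AMPA receptor auxiliary subunit gene, 296 against 5. In the pooled OB reference, Nrxn3, Slc16a6, Sez6 and Shisa9 stood at 57.4, 27.1, 74.7 and 79.0 CPM. Their pooled values in Islr/Hs3st3a1 astroglia were 52.9, 42.4, 120 and 124 CPM, so both OB classes held these genes.

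In the other direction, the nuclear receptor gene Nr2f1 (COUP-TFI) had 1 UMI in Islr/Hs3st3a1 astroglia and 240 in the DG astrocytes, a ratio of 250 (44.4 to 9905) towards the DG. It had 7 UMIs, or 7.58 CPM, in the smaller OB reference, against 0.42 CPM in Islr/Hs3st3a1 astroglia. Hsd11b1, which encodes an enzyme that regenerates glucocorticoids, was at 61.2, 46.5 and 52.7 CPM against 1219, 860 and 832 in the DG, a log2 fold change of -4.21 ± 0.16 (SE, edgeR adjusted p = 2.31e-37), and at 60.6 in the OB reference. Nrn1, Ephb1, Icosl and the small heat shock gene Hspb8 were lower by log2 fold changes of -4.70 ± 0.41, -4.49 ± 0.44, -4.02 ± 0.45 and -3.92 ± 0.30. The pooled OB reference held them at 16.2, 11.9, 0 and 11.9 CPM, and the pooled DG astrocytes at 69.4, 46.3, 44.1 and 83.8.

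Regional transcription factor genes went both ways, with 7 of 21 higher and 5 lower. Meis2, a homeobox gene, was at 127, 186 and 158 CPM against 15.9, 10.1 and 12.9 (log2 fold change 3.53 ± 0.24, edgeR adjusted p = 1.01e-21), and Pax6, Tshz2, Tox, Zic1, Zic4 and Sox8 were also higher. Emx2, a cortical and hippocampal homeobox gene, was at 11.3, 23.3 and 9.30 against 91.9, 101.9 and 107 (-2.65 ± 0.25, edgeR adjusted p = 1.40e-14), with Lhx2, Hopx, Zic5 and Nr2f1 lower as well. The OB reference stood at 178, 219 and 182 for Meis2 and at 26.7, 37.2 and 20.6 for Emx2, so both OB classes lay on the same side of the DG.

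Of 16 heparan sulfate genes, Sulf1, Sdc3, Xylt1 and Hs3st3b1 were higher and Gpc6 was lower. Sdc3, a syndecan core protein gene, was at 108, 85.9 and 133 CPM against 18.8, 27.2 and 21.5 in the DG (2.10 ± 0.23, edgeR adjusted p = 3.19e-12), and the OB reference had 62.3, 81.0 and 90.8. Of 21 matrix genes, 8 were higher, among them Sparc, Sparcl1, Igfbp2 and Itih3, and 8 were lower, among them Mfge8, Timp2 and Thbs4. Sparc rose by 0.79 ± 0.14 over the DG (edgeR adjusted p = 5.77e-06), with overlapping values since the aged DG stood at 909 CPM. Of 18 transmitter genes, 5 were higher, including Slc6a9 (250 ± 34.5 against 32.6 ± 23.8 CPM, SD, n = 3), Slc7a10, Slc38a3 and Slc1a4, and 3 were lower. Of 9 axon guidance genes, 4 were higher and 1 was lower, and of 19 channel genes 3 went each way.

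Of 9 neural stem cell genes, Hopx, Gfap, Id4, Prom1 and Thbs4 were lower in Islr/Hs3st3a1 astroglia and 0 were higher. Gfap was at 403, 529 and 541 CPM in the DG (log2 fold change -1.09 ± 0.15, edgeR adjusted p = 1.31e-08). Of 8 early response genes, Fos, Jun, Junb, Jund and Dusp1 were lower, and Fos stood at 25.8, 31.3 and 37.2 against 159, 134 and 270.3. These genes also respond to tissue dissociation, whose part was not tested. Of 15 metallothionein and antioxidant genes, 5 were lower and 0 higher, and of 12 interferon genes Bst2, H2-K1, H2-D1, Ifit1 and Ifit3 were higher and 0 lower.

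The remaining lists of the comparison with the DG gave 5 genes higher and 1 lower of 10 Notch genes, 4 and 2 of 10 Wnt genes, 1 and 3 of 10 BMP and TGF-beta genes, 2 and 0 of 13 Shh and FGF genes, 5 and 3 of 23 lipid and sterol genes, 3 and 2 of 11 reactive astrocyte genes, 1 and 2 of 14 astrocyte markers and 0 and 1 of 9 N-acylethanolamine genes, the last being Mgll. Hes5, which was lower than in the OB reference, was higher than in the DG, at 625, 507 and 467 CPM against 267, 153 and 330.3. The 2 cell cycle genes, 1 microglia gene and 1 ependymal gene tested gave 0 calls by edgeR or DESeq2, and 1 of them, the ependymal gene, had an unadjusted p under 0.05. Of markers of other cell types, Olig1, Olig2, Tubb3 and Sp8 were higher and Frzb and Mbp were lower. DESeq2 called Olig2, Sp8 and Frzb of these, and did not call Olig1, Tubb3 or Mbp. The 6 oligodendrocyte genes, Mbp among them, summed to 34.7, 353 and 38.6 CPM in the DG astrocytes. In Islr/Hs3st3a1 astroglia they summed to 91.8, 30.4 and 23.3 CPM. Of the 53 Tubb3 UMIs of the middle-aged Islr/Hs3st3a1 cells, 67.9% lay in 3 of 283 cells.

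**Figure D4:**
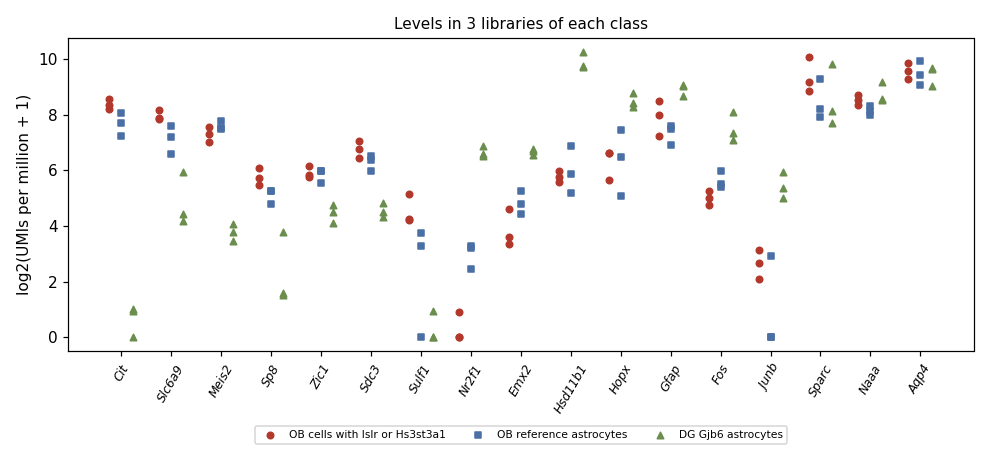
Levels of 17 genes as log2(CPM + 1) in Islr/Hs3st3a1 astroglia (circles), OB reference astrocytes (squares) and DG Gjb6 astrocytes (triangles), with 1 point per library. Cit was near 0 in the DG libraries, and for Meis2, Emx2 and Hsd11b1 the 2 OB classes lie together and apart from the DG.

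Between ages, each value rests on 1 library, so log2 ratios of summed CPM are given with exact 95% counting intervals and no test. From 3 to 24 months, 3571 genes had at least 50 UMIs, of which 47 were higher by a log2 ratio of at least 1 (1.32%) and 38 lower (1.06%), around a median of -0.06. From 3 to 14 months the counts were 47 (1.01%) and 17 (0.366%) of 4650 genes, and from 14 to 24 months 31 (0.655%) and 42 (0.888%) of 4732.

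The highest aged over adult ratios were those of Lgi1, Sult1a1, Xist, Ifitm3 and Tmem245. Lgi1, which encodes a secreted protein of synapses, had 8, 48 and 71 UMIs, or 12.9, 42.9 and 110.1 CPM, a log2 ratio of 3.09 (2.04 to 4.36), and 17.8, 19.7 and 124 CPM in the reference. Ifitm3, an interferon-induced gene, was at 27.4, 51.0 and 88.4 (1.69, 0.888 to 2.57) and at 13.4, 28.5 and 124 in the reference. Xist, the RNA of the inactive X chromosome, was at 349.6, 836 and 1232, while 4 genes of the Y chromosome summed to 182, 159 and 115 CPM. In the reference Xist was at 689.8, 863 and 917 CPM and the Y genes at 125, 169 and 136. The study's methods state that males and females were spread evenly over the groups. The sexes pooled at each age and their part in other values were not tested.

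Among the lowest ratios were those of Scnm1, Arpp21, Nsdhl and Birc2, at -1.60, -1.46, -1.43 and -1.40. Nsdhl, an enzyme of sterol synthesis, had 39, 42 and 15 UMIs. The UMIs of these 4 genes at 24 months were between 13 and 17.

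Of 21 lipid and sterol genes with enough UMIs at 3 and 24 months, Cyp51, Msmo1 and Idi1, enzymes of sterol synthesis, and Fabp7, a fatty acid binding protein gene, had log2 ratios under -1 and 0 had ratios over 1, with a median of -0.30 against -0.06 for all genes. Fabp7 fell from 1685 to 674 CPM (-1.32, -1.49 to -1.16) and Msmo1 from 834 to 381 (-1.13, -1.36 to -0.908). Acsl3, an acyl-CoA synthetase gene of the same list, had a ratio of 0.32 (0.159 to 0.480). Apoe, which held most of the list's UMIs, was at 37124 and 27367 CPM (-0.44, -0.468 to -0.412). The summed list had a ratio of -0.40 (-0.421 to -0.373) and one of -0.63 (-0.666 to -0.585) in the reference.

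Sparc had a log2 ratio of 1.23 (1.03 to 1.44) and of 1.08 (0.649 to 1.52) in the reference, and Naaa one of 0.15 (-0.106 to 0.414). The interferon list summed to a ratio of 0.71 (0.565 to 0.853), with Ifitm3 as the 1 of 5 genes past 1, and to 1.07 (0.81 to 1.34) in the reference. The reactive list had a ratio of 0.52 (0.37 to 0.665) and 0 of 7 genes past 1, with complement C4b at 126 and 237 CPM (0.92, 0.514 to 1.33), and the reference one of 0.32 (0.047 to 0.591). The metallothionein and antioxidant list had a ratio of 0.33 (0.295 to 0.361), against 0.23 (0.176 to 0.285). The difference between the classes was not tested.

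The astrocyte markers moved less, with a summed log2 ratio of -0.10 (-0.129 to -0.0618) and 0 of 15 past 1 in either direction. Aqp4 was lowest among them, at 928, 768 and 620.0 CPM (-0.58, -0.769 to -0.395), and at 966, 689.7 and 541 in the reference. The heparan sulfate list had a ratio of -0.09 (-0.233 to 0.0488), and the matrix list one of -0.15 (-0.196 to -0.107). Of the other lists, Slc38a1, Bmpr1a and Jun were among the genes past 1 in size, with ratios of 1.25, 1.23 and -1.01.

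**Figure D5:**
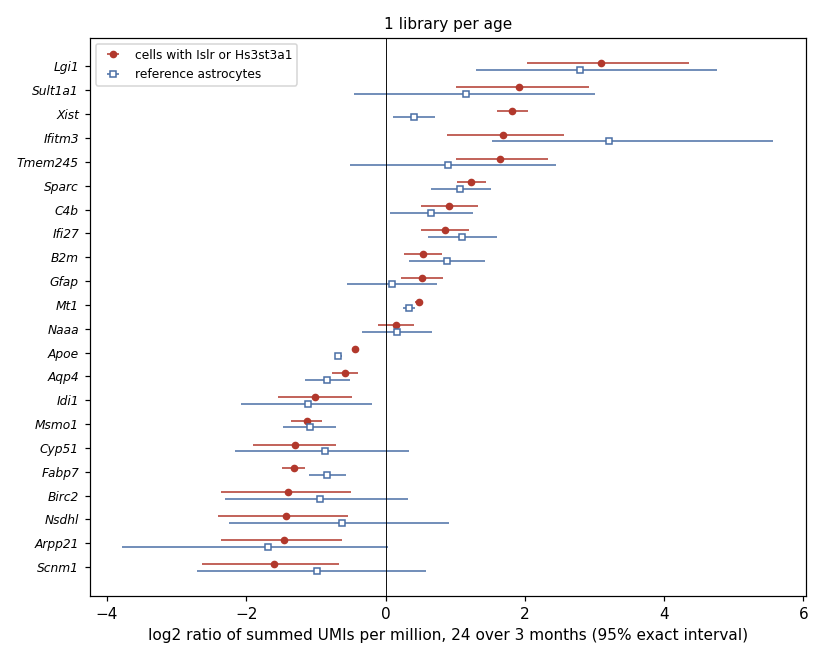
Log2 ratio of summed CPM at 24 over 3 months, with 95% exact counting intervals, for 9 named genes of the age comparison and 13 further genes, in Islr/Hs3st3a1 astroglia (filled) and OB reference astrocytes (open). Lgi1 lies highest at 3.09, and Scnm1, at -1.60, lies lowest of the values shown for Islr/Hs3st3a1 astroglia.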

How the data were processed

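The authors sorted GFP+ cells, made 10x libraries and deposited unnormalized count matrices (UMIs, genes by cells), and Cell Ranger 3.0.2 and mm10 are named in the submitters' processing notes. The 9 single-cell libraries were used. Cells needed 1500 or more UMIs and at most 10% mitochondrial UMIs. UMIs were summed per class and library and tested with edgeR 4.0.16 (TMM, filterByExpr, quasi-likelihood test, library or age as a block, Benjamini-Hochberg adjustment, threshold 0.05, two-sided) in R 4.3.3. The study's methods compare single cells, which are not replicates, so sums were used instead. Genes of the rule were given no test. Shares have exact Clopper-Pearson intervals at 95%, and age ratios exact binomial intervals for genes with 50 or more UMIs. A count of 0 was given a limit of 3 counts. The members and gene lists were chosen with earlier results of these data known.

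Named genes are the 12 highest and 12 lowest log2 fold changes within the OB, 6 and 6 of each other test, at 100 or more UMIs and the same sign in all 3 libraries, and the 5 highest and 5 lowest age ratios whose interval leaves out 0, without rule, mitochondrial, ribosomal, Gm and Rik genes. The 4 markers, the genes of the lists and the marker genes of the study are also named. A few genes that these rules pick are not reported here. The 4 Y genes, the split of other-type RNA by cell and the pooled ratios were added after values had been seen. Scrublet (scanpy 1.11.5, expected rate 0.01) called 19 of 2017 OB barcodes, which were kept. The edgeR step was run on simulated counts drawn independently for each sum, with the same dispersion for all genes. These had no library effect beyond depth, so the run cannot show how the step handles paired sums. Both classes of a library came from the same pool, which pairs the sums within the OB. Deviations from the class means correlated at r = 0.14, 0.13 and 0.17 across 6455 genes within a library for the first comparison, at 0.08, 0.07 and 0.13 across 3942 genes for the second and, across 7765 genes, at 0.09, 0.04 and 0.12 within an age for the third, where the pairing comes from the shared mice of an age. Between sums of different libraries or ages, r ranged from -0.12 to -0.02 in the first and from -0.10 to 0.02 in the second. In the third it ranged from -0.11 to 0.04, so the highest unmatched value was close to the lowest matched one. Alternatives were DESeq2 1.42.0, other cell and gene limits, other references, thinning, removal of doublets, single genes and single libraries. Coordinates are those of GENCODE vM21.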

Additional observations from a re-analysis of the deposited data

How the results depend on the processing

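The 50 and 48 genes higher and lower than the reference became 8 and 3 with DESeq2, 26 and 18 with each cell thinned to 1500 UMIs, 18 and 5 at a mitochondrial limit of 5%, 33 and 26 without doublets, and 1 and 3 in cells with Hs3st3a1 only. With thinning, 21 of the 50 and 7 of the 48 were called again. Without cells holding markers of other cell types 20 were lower, and with 2 or more UMIs of both genes 78 were higher. Without Slc6a11 in the reference rule they were 127 and 236, without its Pdgfra and Dcx limits 101 and 108, and with all genes of any UMI 89 and 103. Leaving out 1 library gave 26 to 47 higher and 33 to 59 lower, the lowest count of higher genes without the middle-aged library. With no replicate block, which ignores the pairing of sums within a library, 2 and 1 genes were called, and Sparc had an adjusted p of 0.449. For Islr against Hs3st3a1 cells, the 13 and 4 genes became 1 and 1 with DESeq2, 24 and 12 with any UMI, 3 and 1 with no replicate block, and 0 to 20 and 0 to 17 without 1 library. Against the DG, DESeq2 called 171 and 131, and leaving out 1 age gave 268 to 437 and 223 to 396. With no replicate block the comparison with the DG gave 357 and 306. The causes were not tested.

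The share of these astroglia was 31.4% (adult, 1000 UMIs), 31.3% and 43.2% (adult and middle-aged, mitochondrial limit of 5%), 58.9% (aged, 3000 UMIs), 58.2%, 65.7% and 69.1% over Slc1a3 cells, and 22.8%, 29.6% and 32.6% thinned. Aged over adult genes past the fold were 208 and 198 at 20 UMIs, 15 and 9 at 100 UMIs and 21 and 17 thinned, and middle-aged over adult genes 233 and 121, 8 and 4, and 13 and 8. Of the values of named genes, 320 kept their side of the threshold, 5 gained significance and 114 lost it in the first comparison. In the second 36 kept it and 34 lost it, in the third 96 and 2, and 0 changed sign. The ranked genes were chosen for the same sign in all 3 libraries. List genes such as Kcnj10 are not in the counts of the first comparison. Kcnj10 went from 0.66 to -0.16 in cells with Hs3st3a1 alone. The low counts of single UMI cells limit the split of the classes.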
